A study of Rattus norvegicus with 9 samples.

Results

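Vasoactive peptides and their receptors were examined in quiescent rat aortic smooth muscle cells (RASMC) whose Na+,K+-ATPase had been inhibited. The genes were 10 chosen by name: the peptide precursors *Edn1* (endothelin-1), *Adm* (adrenomedullin) and *Nppc* (C-type natriuretic peptide), the endothelin-converting enzyme *Ece1*, and the receptors *Ednra*, *Ednrb*, *Calcrl*, *Npr2*, *Npr3* and *Agtr1a*. A probe set annotated with that symbol and no other was found for 8 of the 10, 1 probe set each, of 14324 genes named in this way on the array. *Ednra* and *Ednrb*, the endothelin receptors, were not found in the annotation used and are not analysed here.

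RASMC were bought as a primary culture, brought to quiescence in medium with little serum, washed with K+-free DMEM in all groups, and kept for 6 hr in K+-free DMEM (3 arrays), in DMEM with 3 mM ouabain (3 arrays) or in control DMEM (3 arrays). The methods describe 3 independent experiments with all media run in parallel. Neither the labels nor the methods name the strain or the number of animals behind the culture. Total RNA was labelled for Affymetrix Rat Gene 1.0 ST arrays, and all values below are log2 signals as deposited after RMA, a method that corrects background, equalises the distributions of the arrays and summarises the probes of a transcript.

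Ouabain binds the α subunit of the Na+,K+-ATPase and blocks it, while K+-free medium withholds the ion the pump carries inward, so both raise Na+ and lower K+ inside the cell. Endothelin-1 is made from a larger precursor that ECE1 cuts, and it contracts vascular smooth muscle. Adrenomedullin dilates vessels through a receptor made of CALCRL and a RAMP protein, and signals by cyclic AMP. C-type natriuretic peptide acts on NPR2, a membrane guanylyl cyclase that makes cyclic GMP, and is removed by the clearance receptor NPR3. *Agtr1a* encodes the main angiotensin II receptor of rodent vascular smooth muscle, which contracts the vessel.

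The starts of the 3 ligand genes are shown because each of them rose under both treatments, though by different amounts. The paper's introduction also names both endothelin-1 and adrenomedullin as sensitive to HIF-1, the hypoxia-inducible factor. In its PCR after a longer treatment, siRNA against *Hif-1a* lowered the *Edn1* rise in hypoxia but not that in ouabain. The rise in ouabain was absent in low-Na+, high-K+ medium. RefSeq promoter windows of assembly GRCr8, 250 bases before to 50 after each annotated start, matched 9 of the 10 genes. They were searched on both strands for ACGTG and GCGTG, the core letters of the hypoxia response element, and for TATAA. They were also searched for TGANTCA, a consensus form of the AP-1 site. The stretches below run 5′ to 3′ on the strand of the gene and lie upstream of the start on which each window was built. For *Adm* that start lies inside the annotated span of the gene, which begins further upstream. Capitals mark the hypoxia response and TATA letters, which do not overlap each other.
*Edn1*, chr17:22666785-22666896, minus strand: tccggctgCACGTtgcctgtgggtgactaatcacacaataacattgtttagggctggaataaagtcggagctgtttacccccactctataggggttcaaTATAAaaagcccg
*Adm*, chr1:174180146-174180167, plus strand: ctgagcgcTTATAAgacgctgg
*Nppc*, chr9:94772222-94772309, minus strand: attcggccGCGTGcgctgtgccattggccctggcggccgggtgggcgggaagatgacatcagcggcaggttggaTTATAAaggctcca

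*Edn1* carried the hypoxia response letters in reverse orientation and *Nppc* in forward orientation, while the *Adm* window held none. Such a match was found in 4 of 9 windows (*Edn1*, *Nppc*, *Ednra* and *Ednrb*), against 41.6% of all 33469 promoter windows. TATAA on either strand was found in 4 of 9 (*Edn1*, *Adm*, *Nppc* and *Agtr1a*), against 26.2% of all windows, and TGANTCA in 0 of 9, against 7.33%. Letters close to TGANTCA, such as tgactaa in the *Edn1* stretch, were not counted. The 0 of 9 therefore does not mean that these windows lack AP-1 sites. All of these are matches of letters only, in windows of fixed length, and sites outside the windows were not searched for. The *Adm* window thus does not show whether HIF-1 acts on that gene. The paper found the hypoxia response letters upstream of genes both sensitive and resistant to *Hif-1a* siRNA. It concluded that the letters alone cannot predict regulation by HIF-1.

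The 3 ligand genes rose under both treatments, while the receptors went in different directions. Of the 8 genes, *Nppc* and *Adm* had the largest rises against control and *Npr2* the deepest fall, and *Agtr1a* passed in ouabain but not in K+-free medium. A gene was called at a Benjamini-Hochberg adjusted p under 0.05 over all 27342 probe sets and a fold above 1.2, in a limma fit of all 9 arrays. In K+-free medium 5 of the 8 measured genes passed (4 rose and 1 fell), against 33.9% of all probe sets (16.1% higher and 17.9% lower than control). In ouabain 6 of 8 passed (3 rose and 3 fell), against 32.5% of all probe sets (15.8% higher and 16.8% lower). The 8 genes come from the 15097 probe sets with 1 symbol. Fitted alone, 6192 of these passed in K+-free medium and 5965 in ouabain, larger shares than over all probe sets. Centred on *B2m*, the split over all probe sets became 2375 rises and 7059 falls in K+-free medium and 2166 and 6223 in ouabain, where the deposited scaling gave 4391 and 4890, and 4312 and 4583. The 5 calls among the 8 genes in K+-free medium then split into 3 rises and 2 falls. In the same limma fit *B2m* itself differed from control by 0.16 in K+-free medium and 0.15 in ouabain. These changes (adjusted p = 0.0129 and 0.0163) were under the fold limit, and centring on *B2m* lowers every other change by as much. Treated arrays did not overlap control arrays in 8 of 8 genes under each treatment, as in 57.1% of all probe sets for K+-free medium and 54.2% for ouabain.

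**Figure D1:**
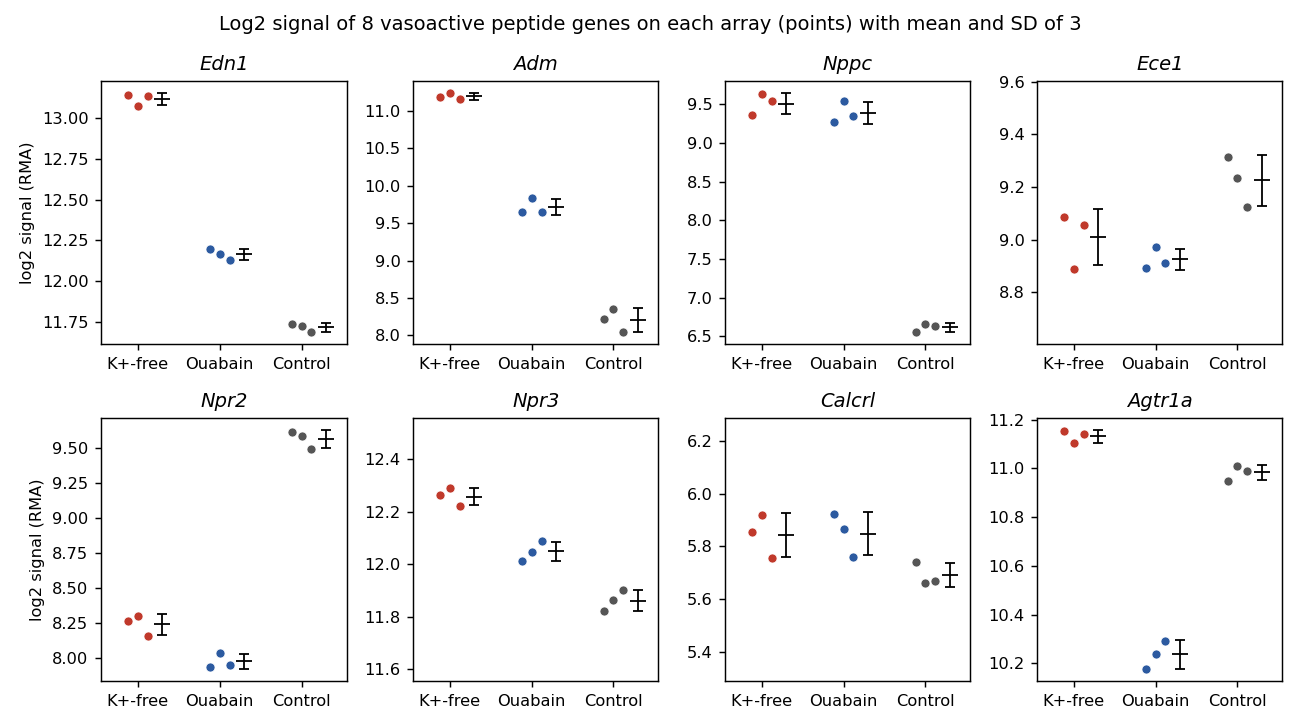
Log2 signal (vertical axis, a separate range in each panel) of 8 genes on each of 3 arrays in K+-free medium, ouabain and control, with the mean and SD beside the points. *Edn1* and *Adm* form 3 separate steps, *Nppc* is high under both treatments, *Npr2* is low under both, and *Agtr1a* is low in ouabain only.

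*Nppc*, which encodes C-type natriuretic peptide, had log2 signals of 9.36, 9.63 and 9.54 in K+-free medium, 9.26, 9.54 and 9.34 in ouabain, and 6.55, 6.66 and 6.63 in control cells. The treated arrays lay together, far above the controls. The rise was 2.89 (SE 0.0846, adjusted p = 9.06e-10) or 7.42-fold in K+-free medium and 2.77 (adjusted p = 2.28e-09) or 6.80-fold in ouabain. Only 0.121% and 0.0475% of all probe sets changed by more in K+-free medium and ouabain. The difference between the treatments was 0.13 with a 95% confidence interval of -0.06 to 0.31 (adjusted p = 0.387), and their arrays overlapped. All 3 control signals lay under the medians of their arrays, which ran between 6.76 and 6.80.

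*Adm* encodes the precursor of adrenomedullin, a vasodilator. Its signals were 11.19, 11.24 and 11.16 in K+-free medium, 9.65, 9.84 and 9.66 in ouabain, and 8.22, 8.35 and 8.04 in control cells. No array of one condition overlapped an array of another, and the order was K+-free medium, ouabain, control. The rise was 2.99 (SE 0.0819, adjusted p = 6.13e-10) or 7.95-fold in K+-free medium and 1.51 (adjusted p = 7.52e-08) or 2.85-fold in ouabain. K+-free medium exceeded ouabain by 1.48 (95% confidence interval 1.30 to 1.66, adjusted p = 4.72e-07), that is 2.79-fold.

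*Edn1*, the precursor of the vasoconstrictor endothelin-1, was bright in every condition and followed the same order. It gave 13.14, 13.07 and 13.14 in K+-free medium, 12.19, 12.17 and 12.13 in ouabain, and 11.74, 11.73 and 11.69 in control cells. The SD of a group was at most 0.036, so that even the smallest step stood clear of the replicates. The gain was 1.40 (SE 0.048, adjusted p = 2.64e-09) or 2.64-fold in K+-free medium and 0.45 (adjusted p = 1.57e-05) or 1.36-fold in ouabain. The difference between them, 0.95 (95% confidence interval 0.85 to 1.06, adjusted p = 2.23e-07), was 1.93-fold. Thus *Edn1* and *Adm* answered K+-free medium more than ouabain, while for *Nppc* no such difference was detected.

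*Ece1* encodes the protease that releases endothelin-1 from its precursor. It had 9.09, 8.89 and 9.05 in K+-free medium, 8.89, 8.97 and 8.91 in ouabain, and 9.32, 9.24 and 9.12 in control cells. Both treated groups lay below the controls, by a margin of only 0.04 in K+-free medium and 0.15 in ouabain. The fall by 0.30 in ouabain (SE 0.0687, adjusted p = 0.00434) passed the test. The change of -0.22 in K+-free medium (adjusted p = 0.0249) did not reach the fold limit, and the treatments differed by 0.08 (95% confidence interval -0.07 to 0.24, adjusted p = 0.497). The call in ouabain was lost without control replicate 1 (-0.25, adjusted p = 0.0228) and after repeated quantile normalization (-0.14, adjusted p = 0.0813). *Ece1* passed in K+-free medium without control replicate 3 (-0.27, adjusted p = 0.0147).

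**Figure D2:**
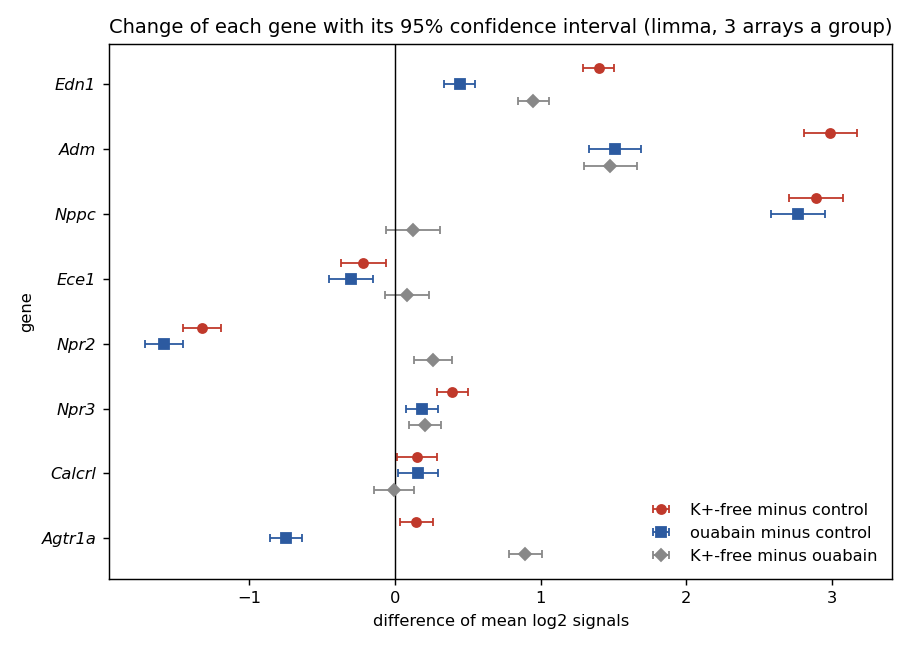
Difference of mean log2 signals (horizontal axis) of each gene for each treatment less control and for K+-free medium less ouabain, with 95% confidence intervals from limma (3 arrays a group). The intervals of *Edn1* and *Adm* in K+-free medium lie right of those in ouabain, those of *Nppc* lie side by side, and those of *Agtr1a* lie on opposite sides of 0.

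*Npr2*, the guanylyl cyclase receptor of C-type natriuretic peptide, went opposite to its ligand. Its signals were 8.26, 8.30 and 8.16 in K+-free medium, 7.94, 8.04 and 7.95 in ouabain, and 9.61, 9.59 and 9.49 in control cells. It fell by 1.32 in K+-free medium (SE 0.0592, adjusted p = 1.6e-08), a signal 2.50-fold lower than in control, and it fell by 1.59 in ouabain (adjusted p = 6.78e-09), 3.00-fold lower. The difference between the treatments, 0.26 (95% confidence interval 0.13 to 0.39, adjusted p = 0.0075), stood at the fold limit of 1.2. It failed under each of the 4 other scalings (0.24 to 0.26) and without K+-free replicate 1 or 2 or ouabain replicate 1 or 3 (0.24 to 0.25, adjusted p = 0.0266 to 0.0351).

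*Npr3*, the receptor that clears natriuretic peptides, gained a little. It had 12.26, 12.29 and 12.22 in K+-free medium, 12.01, 12.05 and 12.09 in ouabain, and 11.82, 11.86 and 11.90 in control cells, with no overlap between any of the groups. The rise of 0.40 in K+-free medium (SE 0.0494, adjusted p = 4.85e-05) passed, though not when centred on *B2m* (0.24). The difference of 0.19 in ouabain (adjusted p = 0.0101) and that between K+-free medium and ouabain of 0.21 (adjusted p = 0.0101) stayed under the fold limit.

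*Agtr1a*, the angiotensin II receptor, differed between the 2 ways of inhibiting the pump. Its signals were 11.15, 11.10 and 11.14 in K+-free medium, 10.18, 10.24 and 10.29 in ouabain, and 10.95, 11.01 and 10.99 in control cells. Ouabain arrays thus lay well below both other groups. *Agtr1a* fell by 0.75 in ouabain (SE 0.0506, adjusted p = 3.9e-07), 1.68-fold lower than in control. In K+-free medium it differed from control by 0.15 (adjusted p = 0.0331), under the fold limit and with a sign that turned when arrays were centred on *B2m* (-0.01). K+-free medium exceeded ouabain by 0.90 (95% confidence interval 0.78 to 1.01, adjusted p = 5.5e-07), or 1.86-fold. The rat has a closely related gene, *Agtr1b*, and probes may not part their transcripts fully. The *Agtr1b* probe set averaged 6.70 in K+-free medium, 6.58 in ouabain and 6.49 in control cells and passed in no comparison.

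*Calcrl*, the adrenomedullin receptor subunit, was dim. It had 5.85, 5.92 and 5.75 in K+-free medium, 5.92, 5.86 and 5.76 in ouabain, and 5.74, 5.66 and 5.67 in control cells, under the array median on all 9 arrays. The changes of 0.15 in K+-free medium (95% confidence interval 0.01 to 0.29, adjusted p = 0.0686) and 0.16 in ouabain (0.02 to 0.30, adjusted p = 0.0613) did not pass.

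Set directly against ouabain, K+-free medium gave a higher signal in 4 of the 8 genes (*Edn1*, *Adm*, *Agtr1a* and *Npr2*) and a lower one in 0, where 16.4% of all probe sets passed (8.45% higher and 7.97% lower). Of the 15097 probe sets with 1 symbol, fitted alone, 3234 passed, a larger share than over all. The arrays of the treatments did not overlap in 5 of the 8, against 32.4% of all probe sets. The comparisons of both treatments with control share the 3 control arrays, so their changes are not independent of each other. The median change of the 8 genes was 0.27 in K+-free medium, against 0.06 over all probe sets, and 0.17 in ouabain, against 0.07.

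Partners and relatives of these genes were examined as well. Of 71 further genes for vasoactive peptides, their receptors and their processing enzymes, 63 were measured. In K+-free medium 12 rose and 5 fell, and in ouabain 9 rose and 4 fell; 10 passed in the same direction under both. Most of the rises came from dim probe sets, under the array median on all 9 arrays. In K+-free medium these were *Oxt*, *Bdkrb1*, *Bdkrb2*, *Adcyap1r1*, *Npy*, *Npy1r*, *Aplnr* and *Ntsr1*. In ouabain they were *Agtr2*, *Avpr2*, *Npy*, *Npy1r* and *Aplnr*. Of the falls, *Adm2* under both treatments and *Galr2* in K+-free medium were as dim. The calls were thus 17 of 63 in K+-free medium, against 33.9% of all probe sets, and 13 of 63 in ouabain, against 32.5%. Among the 15097 probe sets with 1 symbol, fitted alone, the shares were larger (6192 in K+-free medium and 5965 in ouabain). After repeated quantile normalization 9 rose and 8 fell in K+-free medium and 5 rose and 4 fell in ouabain, and centred on *B2m* 3 rose and 9 fell in K+-free medium and 4 rose and 6 fell in ouabain. Without ouabain replicate 2, 22 genes passed in ouabain.

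**Figure D3:**
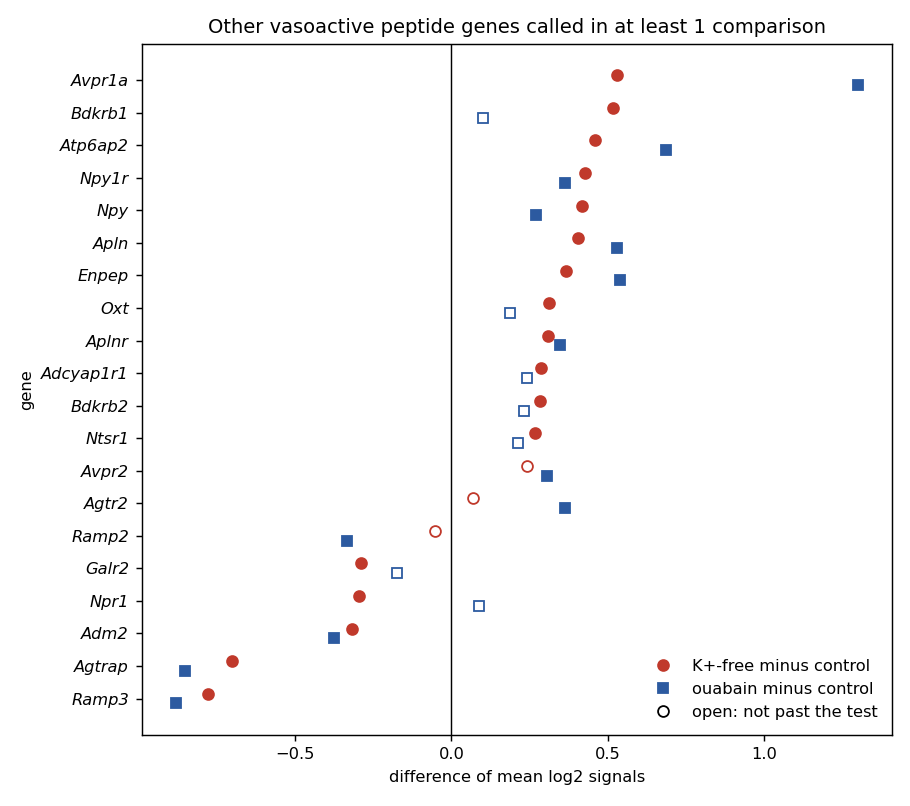
Difference of mean log2 signals against control (horizontal axis) of the 20 further peptide genes that passed in at least 1 comparison, for K+-free medium (circles) and ouabain (squares); open symbols did not pass. *Avpr1a* stands out at the upper end in ouabain, and *Agtrap* and *Ramp3* at the lower end under both treatments.

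Other ligands of the same families did not follow the 3 that rose. Of the endothelins, *Edn2* differed from control by 0.15 in K+-free medium and 0.22 in ouabain (adjusted p = 0.22 and 0.084), and *Edn3* by 0.18 and 0.17 (adjusted p = 0.0716 and 0.0886). *Nppa* and *Nppb*, the atrial and B-type natriuretic peptides, differed from control by 0.09 and 0.11 in K+-free medium and by 0.03 and 0.20 in ouabain, and did not pass. *Adm2*, a relative of adrenomedullin, was lower than control under each treatment (-0.32 in K+-free medium and -0.37 in ouabain, adjusted p = 0.0133 and 0.00536). All of these probe sets were under the array median on all 9 arrays.

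RAMP proteins decide which peptide CALCRL binds. *Ramp3*, which makes an adrenomedullin receptor, had 7.52, 7.16 and 7.26 in K+-free medium, 7.33, 7.14 and 7.16 in ouabain, and 8.24, 8.07 and 7.96 in control cells. Its changes were -0.78 (SE 0.1, adjusted p = 6.19e-05) for K+-free medium and -0.88 (adjusted p = 2.42e-05) for ouabain, opposite in sign to those of *Adm*. *Ramp2*, the other adrenomedullin partner, changed by -0.05 in K+-free medium and fell by 0.33 in ouabain (adjusted p = 0.00197), and the treatments differed by 0.28 (adjusted p = 0.0114). The call of *Ramp2* in ouabain was lost under 1 of the 4 other scalings (-0.18). *Ramp1*, which makes the CGRP receptor, did not pass in any comparison (0.18 in K+-free medium and 0.12 in ouabain). Against control it did pass under 1 of the 4 other scalings, with changes up to 0.35 in K+-free medium and 0.32 in ouabain. In ouabain its sign turned under another scaling (-0.03). *Pam*, the enzyme that amidates peptides such as adrenomedullin, changed by -0.09 and -0.06 in K+-free medium and ouabain and did not pass.

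The other guanylyl cyclase receptor, *Npr1*, which binds atrial natriuretic peptide, averaged 6.42 in K+-free medium, 6.80 in ouabain and 6.71 in control cells. The change in K+-free medium was -0.29 (adjusted p = 0.00226), and it was lower there than in ouabain (-0.38, adjusted p = 0.000899). In ouabain it differed from control by 0.09 and did not pass. The processing enzymes *Furin* (-0.23 in K+-free medium and -0.04 in ouabain) and *Corin* (0.21 and 0.22 in the same order) and the peptidase *Mme* (-0.03 and 0.07) stayed under the fold limit. *Corin* and *Mme* were under the array median on all 9 arrays. *Furin* in K+-free medium did pass under 3 of the 4 other scalings, where its change reached -0.39.

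In the angiotensin system, 10 of 12 further genes were measured, and 3 of them passed in K+-free medium and 4 in ouabain, near the 33.9% and 32.5% of all probe sets. All are named here, some after their values were seen. *Agtrap*, whose product binds the angiotensin II receptor and promotes its internalisation, changed by -0.70 (adjusted p = 1.49e-06) with K+-free medium and -0.85 (adjusted p = 3.78e-07) with ouabain, a fall in both. *Atp6ap2*, the (pro)renin receptor, rose in both, by 0.46 (adjusted p = 1.7e-05) with K+-free medium and 0.69 (adjusted p = 7.26e-07) with ouabain. *Enpep*, the aminopeptidase that degrades angiotensin II, rose by 0.37 in K+-free medium and by 0.54 in ouabain (adjusted p = 0.00141 and 8.02e-05), and its call in K+-free medium was lost under 1 of the 4 other scalings (0.21). *Agtr2*, the second angiotensin II receptor type, rose by 0.36 in ouabain from a dim signal (adjusted p = 3e-04), a call lost under 2 of the 4 other scalings. *Ace* and *Agt*, the converting enzyme and the precursor, did not pass.

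Among the other peptide receptors, *Avpr1a* alone changed by more than 2-fold. It encodes the V1a vasopressin receptor, which contracts vascular smooth muscle. It had 9.48, 9.50 and 9.39 in K+-free medium, 10.21, 10.31 and 10.17 in ouabain, and 8.86, 8.98 and 8.94 in control cells. The 3 groups did not overlap, and here ouabain was the highest. The rise was 0.53 in K+-free medium (SE 0.0595, adjusted p = 2.11e-05) and 1.30 in ouabain (adjusted p = 2.33e-08), and K+-free medium was lower than ouabain by 0.77 (-0.77, adjusted p = 5.13e-06). Of these receptors of pressor peptides, *Avpr1a* was thus lower and *Agtr1a* higher in K+-free medium than with ouabain.

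For each of the 4 genes that changed by more than 2-fold against control, the genes with the nearest pattern were found by the Euclidean distance over the 9 arrays, each gene centred on its control mean, among 14323 others. *Nppc* was nearest to *Bhlhe41* (distance 0.567), *Ets2* (0.732) and *Atf3* (1.09). *Adm* was nearest to *Sik1* (0.3), *Slc9a3* (0.464) and *Csf1* (0.595). *Edn1* was nearest to *Tanc1* (0.216), *Zfp36l1* (0.223) and *Dot1l* (0.256), and *Npr2* to *Cmtm3* (0.171), *Tgfb1i1* (0.174) and *Gys1* (0.202). These distances describe 9 arrays in 3 groups.

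The cultures were checked against markers of the cell types they could hold. Of 9 measured smooth muscle markers, 8 were above the array median, including *Tagln*, *Cnn1* and *Myl9*, and *Des* was not. By the same call 3 of the 9 fell in K+-free medium, against 17.9% of all probe sets, and 6 in ouabain, against 16.8%. Of the 15097 probe sets with 1 symbol, fitted alone, 3551 fell in K+-free medium and 3345 in ouabain. *Lmod1* (-1.48 in K+-free medium and -1.61 in ouabain) and *Myh11* (-0.62 and -0.69) fell the most of these markers. The linear signals of the 9 were summed on each array and the sum was given as log2. It was 14.76 to 14.78 in K+-free medium, 14.58 to 14.73 in ouabain and 14.89 to 14.94 in control cells. Such a sum follows the brightest markers, here *Tagln*, more than dimmer ones such as *Lmod1* and *Myh11*. Of 7 measured endothelial markers, 5 were under the array median on every array (*Cdh5*, *Tek*, *Tie1*, *Cldn5* and *Emcn*). Their sums were 8.83 to 8.90, 8.84 to 8.92 and 8.81 to 8.84 in K+-free medium, ouabain and control. In K+-free medium *Cdh5* rose (0.29) and *Esam* fell (-0.50), against 33.9% of all probe sets called. In ouabain *Cdh5* (0.40) and *Nos3* (0.26) rose and *Esam* fell (-0.39), against 32.5%. Of 7 macrophage markers, 5 were under the median on every array. Under each treatment 3 rose, against 16.1% of all probe sets in K+-free medium and 15.8% in ouabain. *Cd68* rose by 0.94 in K+-free medium and 1.29 in ouabain, *Cd14* by 0.43 and 1.27, and the dim *Csf1r* by 0.53 and 0.33. The macrophage sum was 9.48 to 9.69 in K+-free medium, 10.06 to 10.15 in ouabain and 9.08 to 9.22 in control cells. It mostly repeats *Cd14* and *Cd68*, the brightest of these markers. The fibroblast sum was 14.80 to 14.85 in K+-free medium, 14.65 to 14.83 in ouabain and 14.67 to 14.71 in control cells. Among its 7 markers, 1 was under the median on every array. In K+-free medium *Pdgfra* (1.30) and *Lum* (0.29) rose, against 16.1% of all probe sets, and in ouabain *Fap* (0.59), against 15.8%. The part of these marker changes in the changes of peptide genes was not tested, and in bulk RNA fewer cells of a type cannot be told apart from less RNA per cell.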

How the data were processed

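RNA of 9 RASMC cultures was measured on Affymetrix Rat Gene 1.0 ST arrays. The authors deposited log2 signals of 27342 probe sets made with RMA. Their processing notes also name Partek, without versions. The signals lay between 4.22 and 14.55. Groups follow the sample labels. The number of arrays limits the precision, and with 3 arrays a group the exact permutation test has a smallest p of 0.1.

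The platform annotation gave 1 symbol to 15097 probe sets, several to 323 and none to 11922. Where a gene had several, the brightest on average was used. In R 4.3.3, limma 3.58.1 estimated a mean for each group from the 9 arrays together and moderated the variances by empirical Bayes, and p-values were adjusted by Benjamini-Hochberg over all probe sets of a contrast. The fit was run on simulated data with few planted changes and independent noise, which does not test the scaling or the large share of probe sets called.

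The members and gene lists were chosen with earlier results of these data known. All members were named, with every further peptide gene changed by more than 2-fold, the direct partners of members, and the 3 nearest genes by pattern. The fit did not pair arrays by number: the methods describe parallel experiments but the labels do not tie numbers to them, and deviations from group means correlated at -0.0464 to 0.309 between same-numbered arrays and at -0.284 to 0.163 between others. Alternatives were other scalings, filters, moderation and thresholds, a replicate block, the 6 arrays of a comparison alone, the analysis of variance and t-test of the methods, averaging the probe sets of a gene, and each array left out in turn. Plots used matplotlib 3.10.9 under Python 3.11.15.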

Additional observations from a re-analysis of the deposited data

How the results depend on the processing

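With the fold limit kept at 1.2, each gene of the 8 was recomputed under 22 alternatives in each of the 3 comparisons: 513 values kept their side of the threshold, 12 lost it and 3 gained it, and no called change turned its sign. Under these 22, the calls of *Edn1*, *Adm*, *Nppc* and *Agtr1a* held, as did those of *Npr2* against control. The calls that did not hold were those of *Ece1* in ouabain, *Npr2* between the treatments (by the methods' t-test also, adjusted p = 0.0541) and *Npr3* in K+-free medium; *Ece1* also passed in K+-free medium when centred on *B2m* (-0.37) or on the reference genes (-0.29). The counts of genes called, 5 in K+-free medium, 6 in ouabain and 4 between them, stayed within 5 to 6, 5 to 6 and 3 to 4 when single arrays were left out. For the 63 further peptide genes these ranges were 15 to 20, 12 to 22 and 3 to 5, and for all probe sets 8863 to 9525, 8435 to 9701 and 4291 to 4639.

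With a limit of 1.5-fold, 4 of the 8 genes passed in K+-free medium, 4 in ouabain and 3 between them: *Edn1* and *Ece1* were lost in ouabain, *Npr3* in K+-free medium and *Npr2* between the treatments. Without a fold limit 7, 7 and 5 passed. Without a fold limit 30 further peptide genes passed in K+-free medium, 27 in ouabain and 7 between them, against 17, 13 and 4. With a limit of 1.5-fold they numbered 2, 4 and 1, and all probe sets called numbered 4318, 3924 and 1149, against 9281, 8895 and 4491. The methods' t-test called 2896 probe sets between the treatments after adjustment and 4334 by the unadjusted p. Centring on *B2m* moved the median change of all probe sets to -0.10 in K+-free medium and -0.08 in ouabain, against 0.06 and 0.07. Of the further genes called, 8 of 17 in K+-free medium and 7 of 13 in ouabain passed under all 4 other scalings. With the replicate number as a block the counts were 5, 6 and 4 of the 8 genes and 17, 13 and 4 of the 63, as without it; 4 of 9 arrays correlated best with their own number in both other groups. The cause of these changes was not tested. Signals near or under the array median, as of *Calcrl* and of *Nppc* in control cells, limit the size of change that can be seen.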
